A study of Homo sapiens with 12 samples.

Results

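The histone genes were taken from a count table of HEK293T cells as the rows whose symbol starts with HIST1H, HIST2H, HIST3H, HIST4H, H2AF, H3F3 or H1F. The rule found 61 of the 14438 rows. Of these, 50 are replication-dependent genes with HIST symbols, 4 of linker histone H1, 13 of H2A, 14 of H2B, 9 of H3 and 10 of H4. The other 11 carry the symbols of variant histones. Among them 9 are protein-coding variant genes, H1FX-AS1 is an antisense RNA that overlaps H1FX on the other strand, and H3F3AP4 is a processed pseudogene. HIST2H2BC is also annotated as a pseudogene.

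HEK293T is a human embryonic kidney line, and 4 stable lines of it were made by lentiviral infection and blasticidin selection. They carry wild-type EZH2 (WT), the gain-of-function (GOF) mutants Y641F or A677G, or the loss-of-function (LOF) double mutant H689A/F667I, and are called WT, Y641F, A677G and LOF. RNA was sequenced from 3 biological replicates per line. Each genotype is 1 line, so a genotype and its line cannot be told apart, and each line keeps its endogenous EZH2. The EZH2 count pools the introduced and the endogenous transcript, and was 158 ± 4.32 CPM (SD, n = 3) in WT, 218 ± 9.61 in Y641F, 173 ± 8.57 in A677G and 208 ± 2.03 in LOF. CPM are counts scaled to the library size with TMM factors.

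Histones are the proteins that package DNA into nucleosomes, with H2A, H2B, H3 and H4 forming the core and H1 binding the linker. Replication-dependent histone genes are transcribed mainly in S phase, and their mRNAs end in a conserved stem-loop bound by SLBP in place of a poly(A) tail. Variant histone genes are transcribed throughout the cell cycle, and their mRNAs are polyadenylated like those of other genes. EZH2 is the catalytic subunit of PRC2, which methylates histone H3 on lysine 27.

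The stem-loop is shown first because it separates both classes of gene in sequence. A stem of 6 pairs with a loop of 4 bases was searched within 100 bases after the stop codon of each annotated transcript of the members. It was found in 49 of the 50 replication-dependent members, with the pseudogene HIST2H2BC as the exception, and in 1 of the 11 others, H2AFX. Over 19494 protein-coding genes, histone genes included, only the canonical transcript was searched, and 81 (0.42%) had it. Capitals mark the loop in these sequences, which are from GRCh38 and lie in the 3′ untranslated part of the last exon.
The form of 28 members, among them HIST1H2AB (chr6:26033098-26033113, minus strand) and HIST1H3I (chr6:27871850-27871865, minus strand): ggctctTTTCagagcc
The form of 8 H4 members, among them HIST1H4C (chr6:26104317-26104332, plus strand): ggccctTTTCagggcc
The form of 7 members, among them HIST1H2BJ: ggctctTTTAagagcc
HIST1H4I and HIST1H4K: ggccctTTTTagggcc
HIST2H2AC: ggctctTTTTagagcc
HIST1H3E: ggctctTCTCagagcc
HIST1H2AK: ggttctTTTCagagcc
HIST1H2AG: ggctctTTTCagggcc
H2AFX (chr11:119094898-119094913, minus strand): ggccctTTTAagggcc
All 10 H4 members had the ggccct arm, which among the other members occurred only in H2AFX. A poly(A) signal near an annotated transcript end was found in 10 replication-dependent members, all of which also had the stem-loop, and in 9 of the 11 others. The genes with both included HIST1H2BJ, HIST1H2BD, HIST2H2BE, HIST3H2A and HIST3H2BB.

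Promoter motifs were counted for both classes. Of the 44 replication-dependent promoters in the RefSeq table of GRCh38.p14, 84.1% held CCAAT on either strand within 250 bases before and 50 after the start, against 62.5% of 8 variant promoters and 35.7% of all 27305. TATAAA was present in 68.2%, 50% and 11.95% respectively, and AAACACA in 11.4%, 0% and 5.76%. A match is a description of these letters only. The 250 bases before the start are given for the 2 replication-dependent genes that were lower in A677G (HIST1H2AB and HIST3H2BB), with CCAAT, its reverse complement ATTGG, and TATAAA in capitals.
HIST1H2AB (chr6:26033619-26033868, minus strand): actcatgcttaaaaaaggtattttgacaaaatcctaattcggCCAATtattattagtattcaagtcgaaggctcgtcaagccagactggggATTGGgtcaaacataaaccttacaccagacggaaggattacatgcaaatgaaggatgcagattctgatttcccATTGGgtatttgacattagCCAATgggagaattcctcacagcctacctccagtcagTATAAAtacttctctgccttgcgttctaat
HIST3H2BB (chr1:228457853-228458102, plus strand): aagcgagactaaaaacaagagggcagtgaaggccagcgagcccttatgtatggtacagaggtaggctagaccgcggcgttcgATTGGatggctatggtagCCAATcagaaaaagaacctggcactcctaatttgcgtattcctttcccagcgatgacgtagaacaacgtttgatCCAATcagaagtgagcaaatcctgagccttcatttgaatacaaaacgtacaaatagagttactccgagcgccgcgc
HIST1H2AB held CCAAT 4 times and TATAAA 1 time, and HIST3H2BB held CCAAT 3 times with no TATAAA in this window.

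Total counts per sample ranged from 32137700 to 44562413, and the histone genes took between 1.52% and 1.67% of them. The libraries were described as poly(A)-selected mRNA, yet the 20 tested RNAs without a poly(A) tail from a list (RN7SL1, RN7SK, RMRP, RPPH1 and others) took between 11.4% and 13.9% of the counts. All 7 genes expected in HEK293T were listed, and 6 of them were tested. Among them, the neurofilament genes NEFL and NEFM were lower than in WT in all 3 mutants, and VIM was lower in Y641F. KRT18, NEFL and NEFM were lower in the mean of both GOF lines than in LOF. Of 9 markers of other cell types, 2 were tested. COL3A1, a collagen gene listed as a marker of other cell types, was higher than in WT in both GOF lines, and the part of such line differences in the values of histone genes was not tested. In the table, 175 genes stood at 0 in every A677G or every LOF replicate, and none at 0 in exactly 2 of the 3. They were left out of the tests, which left 14263 genes and 59 of the 61 histone genes, 48 replication-dependent and 11 others. HIST1H2BH had counts of 17, 10 and 10 in WT and of 26, 12 and 20 in Y641F, and was listed at 0 in every replicate of the other lines. HIST1H4I was listed at 0 in A677G and had counts of 17, 19 and 4 in WT, 6, 10 and 17 in Y641F, and 14, 20 and 3 in LOF. No fold is given for either gene.

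Levels spanned over 3 orders of magnitude within the replication-dependent class. Per kb of the canonical transcript and averaged over the samples, the highest levels were those of HIST1H3B with 1670 CPM per kb, HIST1H1C with 1647, HIST1H1E with 1504, HIST1H4C with 1424 and HIST2H2BF with 1388. These encode a core H3, a pair of linker H1 proteins, H4 and H2B. Of the 48 tested, 40 had a mean over 10 CPM. The 8 below it were HIST1H1T (the testis H1), HIST1H2AJ, HIST1H2BG, HIST1H3D, HIST1H3E, HIST1H3I, HIST1H4K and HIST2H2BC. Among the variants, H2AFZ (H2A.Z) was highest at 709 CPM per kb. H3F3B, which encodes H3.3, had 167, H1FX 130, H2AFX 112, and H2AFY (macroH2A1) 96.5 CPM per kb. H2AFV had 53.1, H1F0, the linker histone of non-dividing cells, 47.1, H2AFY2 (macroH2A2) 33.3 and H2AFJ 9.53 CPM per kb. H3F3AP4 had 180, but all of its 31-base stretches also occur in the transcripts of H3-3A, so its reads may come from that gene. HIST1H4J and HIST1H4K share 92.5% and 93.0% of theirs with other genes and are equally uncertain, as are HIST2H2BC and HIST2H3D with 80.2% and 80.4%. HIST1H2AI, HIST1H2AJ, HIST1H2AM and HIST1H2BK share between 65.0% and 71.0%.

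**Figure D1:**
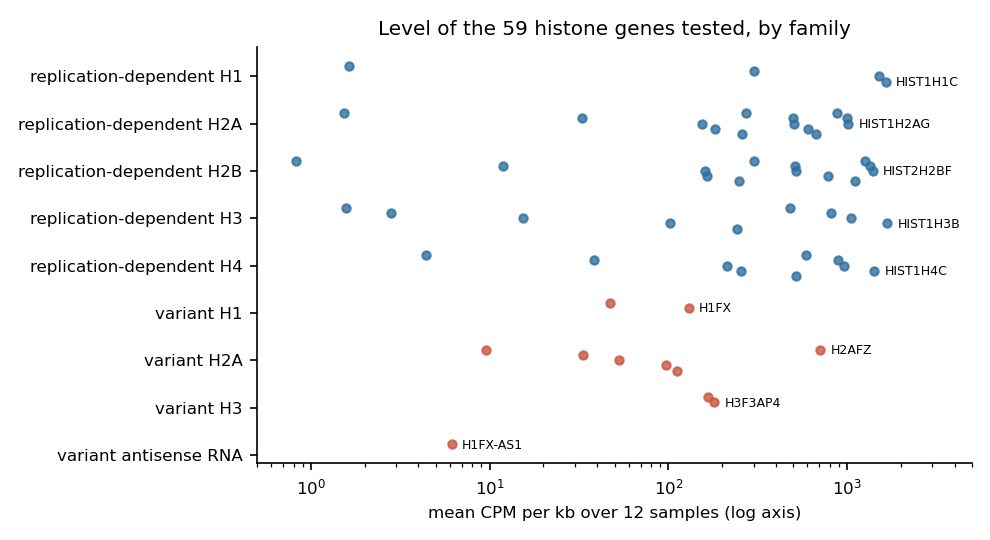
Mean CPM per kb of canonical transcript over 12 samples (log axis) for each of the 59 histone genes tested, by class and family, with the highest gene of each row named. Each replication-dependent family spanned from under 5 to over 1000 CPM per kb, while H2AFZ led the variants at 709.

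The first question was whether the summed level of the tested members of either class differed between the lines. These sums are not totals of all histone genes, since genes without a row in the count table, such as H3F3A, are missing from them. H3F3AP4 and H1FX-AS1 were left out of the variant sum. The summed level of the replication-dependent members was 14320, 14020 and 13606 CPM in WT, 13726, 14482 and 12950 in Y641F, 13663, 13626 and 13615 in A677G, and 14789, 14372 and 14321 in LOF. The means were 13982 ± 358, 13719 ± 766, 13635 ± 25.1 and 14494 ± 256 CPM (SD, n = 3). Every LOF replicate was above those of A677G, the lowest LOF replicate stood beside the highest of WT, and Y641F overlapped each other line. The mean differed from WT by 3.66% in LOF, -2.48% in A677G and -1.88% in Y641F. No test was made on these sums. In bulk RNA, a smaller share of cells in S phase and less histone RNA per cell cannot be told apart.

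The 9 protein-coding variants summed to 1933 ± 25.9 CPM in WT, 1946 ± 97.5 in Y641F, 1996 ± 9.70 in A677G and 1965 ± 47.3 in LOF. The ratio of the replication-dependent sum to this variant sum was 7.23 ± 0.252 in WT, 7.06 ± 0.414 in Y641F, 6.83 ± 0.0379 in A677G and 7.38 ± 0.0971 in LOF. Its values in A677G lay between 6.79 and 6.86, below all replicates of WT and of LOF, whereas Y641F ranged from 6.62 to 7.45. In each core family the mean was highest in LOF and lowest in A677G. H4 members summed to 1967 ± 15.8, 1933 ± 128, 1931 ± 5.07 and 2063 ± 58.9 CPM in WT, Y641F, A677G and LOF, and H2A members to 2996 ± 82.7, 2947 ± 225, 2899 ± 15.5 and 3132 ± 95.4. For H2B the sums were 4234 ± 135, 4123 ± 191, 4118 ± 8.71 and 4292 ± 47.9 CPM, and for H3 2168 ± 56.0, 2149 ± 141, 2108 ± 8.51 and 2279 ± 64.5.

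RNAs without a poly(A) tail moved with these sums between replicates in 3 of the 4 lines. They summed to 134771, 130043 and 118652 CPM in WT, 121583, 141333 and 111739 in Y641F, 125391, 125464 and 136598 in A677G, and 140543, 130726 and 128574 in LOF. The order of the replicates was that of the replication-dependent sum in WT, Y641F and LOF, but not in A677G. Replicate 3 of Y641F was lowest and replicate 1 of LOF highest in the replication-dependent sum, and they were lowest and second highest in the other. The median log2 fold change of the RNAs without a poly(A) tail was 0.06 in LOF against WT and -0.04 in the GOF mean against LOF, and only SCARNA10 passed in any comparison, higher in A677G than in WT (0.14). The part of poly(A) selection in the differences between lines was not tested. Replication-dependent members with and without a poly(A) signal stood at ratios of 1.037 and 1.037 between LOF and WT, and of 0.967 and 0.978 between A677G and WT.

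**Figure D2:**
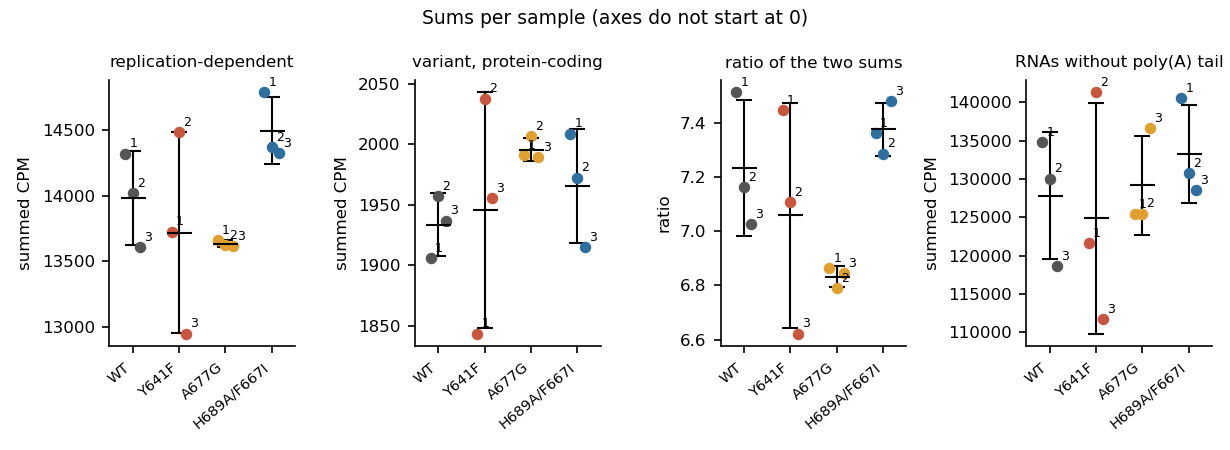
Summed CPM per sample of the 48 replication-dependent members, of the 9 protein-coding variants, their ratio, and the summed CPM of 20 RNAs without a poly(A) tail, by line; points are replicates with their number, bars the mean and SD, and the axes do not start at 0. A677G had the lowest ratio (6.83) with little spread, and Y641F spread over more than the differences between lines.

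In Y641F against WT, the linker variant H1F0 was the only histone gene that passed. Its level was 98.4, 97.8 and 92.5 CPM in WT and 111, 108 and 115 in Y641F, so that the lines did not overlap. It rose by 0.21 on the log2 scale (standard error 0.0419, 15.9% higher; edgeR's quasi-likelihood test, Benjamini-Hochberg adjusted p = 0.000605 over the genes tested). Against a background of 2.09% of all genes higher and 5.59% lower, 1 of 11 variant symbols was higher and none lower. No replication-dependent member of 48 passed in either direction with edgeR's quasi-likelihood test. At an unadjusted p-value under 0.05, 2 were higher and 2 lower, against 1119 and 1621 of all 14263 genes. The exact test of edgeR called 0 and DESeq2 called 1, HIST2H2BF. HIST2H2BF had 746, 700 and 698 CPM in WT and 679, 680 and 628 in Y641F, a log2 difference of -0.11 with an adjusted p of 0.0611 in edgeR's quasi-likelihood test. The median log2 fold change of the replication-dependent members was -0.02, with 33 of 48 below 0, against 0.00 and 49.0% over all genes. This direction rested on 1 library, since without replicate 3 of Y641F the median was 0.02 with 35 of 48 above 0, and with each other replicate left out it lay between -0.07 and -0.02. Without replicate 3 of Y641F, HIST1H1D and HIST1H2AE were called higher as well, and without replicate 1 of WT HIST1H1D was. HIST2H2BF was called lower without replicate 1 or 2 of Y641F, and HIST1H2AK without the latter.

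In A677G, H1F0 was again higher than in WT, and an H2A and an H2B gene of the replication-dependent class were lower. H1F0 had 110, 101 and 109 CPM in A677G, all above WT, and rose by 0.15 (standard error 0.0419, edgeR's quasi-likelihood test, adjusted p = 0.0201). HIST1H2AB, 1 of the 13 H2A genes, had 140, 141 and 134 CPM in WT and 125, 126 and 120 in A677G. It fell by 0.17 on the log2 scale (standard error 0.0452, the same edgeR test, adjusted p = 0.0128), with no overlap. HIST3H2BB, an H2B gene of the small cluster on chromosome 1, had 246, 242 and 235 CPM in WT and 213, 224 and 220 in A677G, and fell by 0.14 (standard error 0.0392, the same edgeR test, adjusted p = 0.0187). Of 48 replication-dependent members 2 were lower and none higher, against 6.48% of all genes lower and 2.07% higher. At unadjusted p-values under 0.05, 9 were lower and 0 higher, against 1751 and 1160 of all 14263 genes. The exact test of edgeR and DESeq2 each called 2 replication-dependent members lower and 0 higher. The median log2 fold change of the class was -0.04, with 38 of 48 below 0, against 0.00 and 48.3% over all genes.

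The members of the clusters HIST2 and HIST3 were all below 0 in this comparison, 6 and 2 genes with medians of -0.09 and -0.12. In HIST1 29 of 39 were, with a median of -0.03, and the 1 gene of HIST4 was at -0.11. Over all genes 48.3% were below 0, and 40.9% of those over 10 CPM. The HIST2 genes include the pseudogene HIST2H2BC, at 0.48 CPM, and HIST2H3D, whose sequence is largely shared with other genes. HIST2H2AC and HIST2H2BF share 39.2% and 38.6% of their 31-base stretches with other histone genes. Among the HIST2 genes, HIST2H2AC had 505, 508 and 490 CPM in WT and 471, 470 and 467 in A677G, a log2 difference of -0.09 that did not pass (edgeR's quasi-likelihood test, adjusted p = 0.141). HIST2H2AC, HIST2H2BE, HIST2H2BF, HIST2H3D and HIST3H2A passed when WT and A677G were fitted alone and with limma voom, which each called 7 members lower. Over all 14263 genes, these fits called 1121 and 1227 lower. HIST2H2AC and HIST2H3D also passed with the trend of each sample with transcript length removed. Of the variants, H2AFV (an H2A.Z isoform) had 157, 155 and 154 CPM in WT and 170, 166 and 164 in A677G, with a log2 difference of 0.10 and an adjusted p of 0.0852 in the same edgeR test. H2AFX, the histone phosphorylated at DNA breaks, had 181, 175 and 169 against 186, 178 and 198 CPM and overlapped. The calls were fragile to single libraries. H1F0 was lost without replicate 3 of WT or replicate 1 or 3 of A677G, and both lower genes were lost without replicate 1 or 2 of WT. HIST1H2AB was also lost without replicate 3 of A677G and HIST3H2BB without its replicate 1.

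In LOF, HIST1H3I was the only histone gene that passed against WT. It is a weakly expressed H3 gene with counts of 32, 40 and 40 in WT, 40, 34 and 36 in Y641F, 32, 45 and 28 in A677G, and 14, 10 and 13 in LOF. The LOF replicates lay below those of every other line. It fell by 1.58 on the log2 scale (standard error 0.350, edgeR's quasi-likelihood test, adjusted p = 0.0280), and no fit with a replicate of either line left out kept the call, with adjusted p-values up to 0.238. No other H3 gene was called in this comparison. HIST1H3B had 865, 844 and 823 CPM in WT and 888, 894 and 876 in LOF, and HIST1H3A had 244, 239 and 232 against 259, 253 and 250, without passing (edgeR's quasi-likelihood test, adjusted p = 0.591 and 0.481).

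With 1 of 48 replication-dependent members lower and 0 higher, the background was 0.161% of all genes lower and 0.14% higher. At unadjusted p-values under 0.05, 8 were higher and 2 lower, against 599 and 585 of all 14263 genes. The exact test of edgeR and DESeq2 each called 0 higher and 1 lower. Small differences lay mostly on the higher side. Of the 48, 42 had a log2 fold change above 0, with a median of 0.06, against 51.2% and 0.00 over all genes. All 9 tested H4 genes and all 4 H1 genes were above 0, with medians of 0.08 and 0.10. HIST1H1D had 237, 222 and 218 CPM in WT and 256, 243 and 249 in LOF, and its log2 difference of 0.14 did not pass (edgeR's quasi-likelihood test, adjusted p = 0.139). The median over the class stayed between 0.04 and 0.07 with each replicate left out. With the trend of each sample with transcript length removed it was 0.04, with 37 of 48 above 0.

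No histone gene differed between both GOF lines by edgeR's quasi-likelihood test, against a background of 0.0701% of genes higher in Y641F and 0.014% lower. At unadjusted p-values under 0.05, 6 were higher and 1 lower, against 527 and 458 of all 14263 genes. The exact test of edgeR called 0 and DESeq2 called 1, HIST1H1D. This gene, which encodes the linker histone H1.3, had 242, 253 and 233 CPM in Y641F and 225, 211 and 215 in A677G. These did not overlap, with a log2 difference of 0.16 (standard error 0.0392, 95% interval 0.08 to 0.24, edgeR's quasi-likelihood test, adjusted p = 0.141). The variants H2AFZ and H3F3B differed by -0.06 (95% interval -0.14 to 0.03) and -0.03 (95% interval -0.12 to 0.06), which does not show that they were equal. The median of the replication-dependent members was 0.01, and it was -0.02 without replicate 2 of Y641F. Without replicate 3 of Y641F it was 0.05, with 40 members above 0 and 8 below, and HIST1H1D was called higher.

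**Figure D3:**
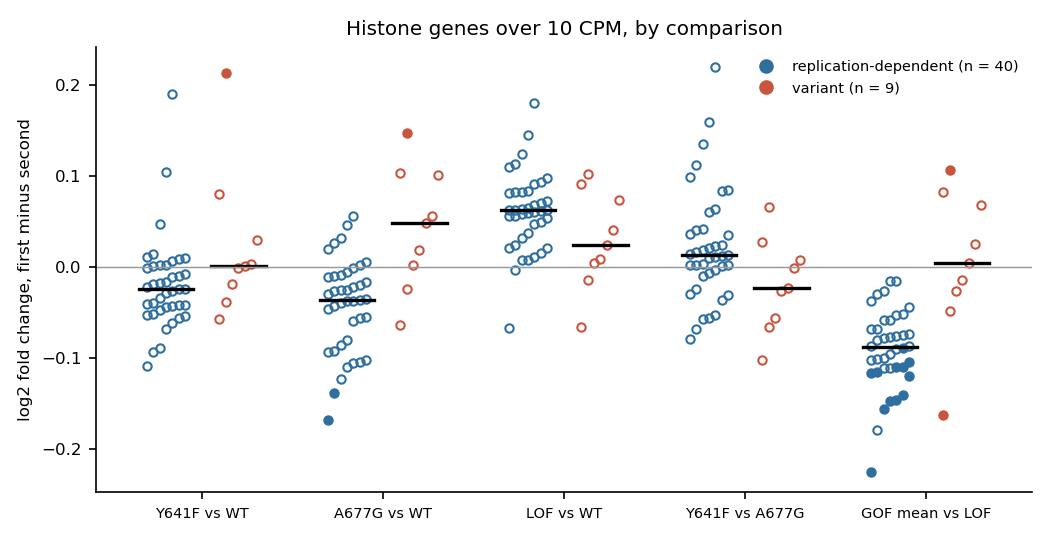
Log2 fold change (first line minus second) of the 40 replication-dependent and 9 variant members over 10 CPM in 5 comparisons; filled points passed an adjusted p of 0.05 in edgeR's quasi-likelihood test and black lines are medians. With all replicates, the replication-dependent members lay mostly below 0 in both GOF lines, above 0 in LOF, and all below 0 in the GOF mean against LOF; in Y641F most lay above 0 once its replicate 3 was left out.

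The comparison of the mean of both GOF lines with LOF gave the most calls. It tests the mean of both lines and not each line. Of 48 replication-dependent members, 12 were lower in the GOF mean and 1 higher by edgeR's quasi-likelihood test, against 8.75% and 3.81% of all genes. Those lower were HIST1H1C and HIST1H1D of H1, HIST1H2AB, HIST1H2AH, HIST1H2AK, HIST1H2AL and HIST3H2A of H2A, HIST1H2BJ of H2B, HIST2H3D of H3, and HIST1H4C, HIST1H4D and HIST4H4 of H4. Their log2 differences lay between -0.23 and -0.09, or -14.5% to -5.97%. Apart from HIST1H2AB, GOF and LOF samples overlapped in each of them. The GOF lines were not always alike, as HIST1H1D had means of 243 CPM in Y641F, 217 in A677G and 250 in LOF. HIST1H3I was the exception, higher by 1.35 on its few counts. Of the 48 members, 44 were below 0 with a median of -0.09, and all 40 members over 10 CPM were below 0, with -0.02 the smallest difference. Over all genes the median was 0.00 and 48.4% were below 0, and over the genes above 10 CPM 42.8% were.

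HIST1H2AB moved furthest among the well-expressed members. It had 142, 138 and 120 CPM in Y641F, 125, 126 and 120 in A677G, and 155, 149 and 146 in LOF, so that all GOF samples were below all LOF samples. Its log2 difference was -0.23 (standard error 0.0388, edgeR's quasi-likelihood test, adjusted p = 5.17e-05), and it passed in every alternative run and with each replicate left out. HIST1H4C, the H4 gene with the highest level, had 539, 600 and 547 CPM in Y641F, 558, 562 and 564 in A677G, and 623, 605 and 596 in LOF. Replicate 2 of Y641F reached into the LOF range, and the difference was -0.12 (standard error 0.0311, the same edgeR test, adjusted p = 0.00922). HIST1H4B, another H4 gene, had 335, 366 and 304 CPM in Y641F, 336, 342 and 330 in A677G, and 379, 351 and 351 in LOF, and its difference of -0.10 did not pass (the same edgeR test, adjusted p = 0.0717). HIST1H3H, the second highest H3 gene, had 512, 556 and 450 CPM in Y641F, 499, 499 and 495 in A677G, and 568, 534 and 524 in LOF, with a difference of -0.11 that did not pass either (the same edgeR test, adjusted p = 0.0540). In both genes replicate 2 of Y641F alone among the GOF samples reached into the LOF range. For HIST2H3D, replicates had 364, 405 and 347 CPM in Y641F, 361, 366 and 358 in A677G, and 435, 402 and 382 in LOF. Its difference was -9.73% (the same edgeR test, adjusted p = 0.00901) with an overlap at the same replicate.

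**Figure D4:**
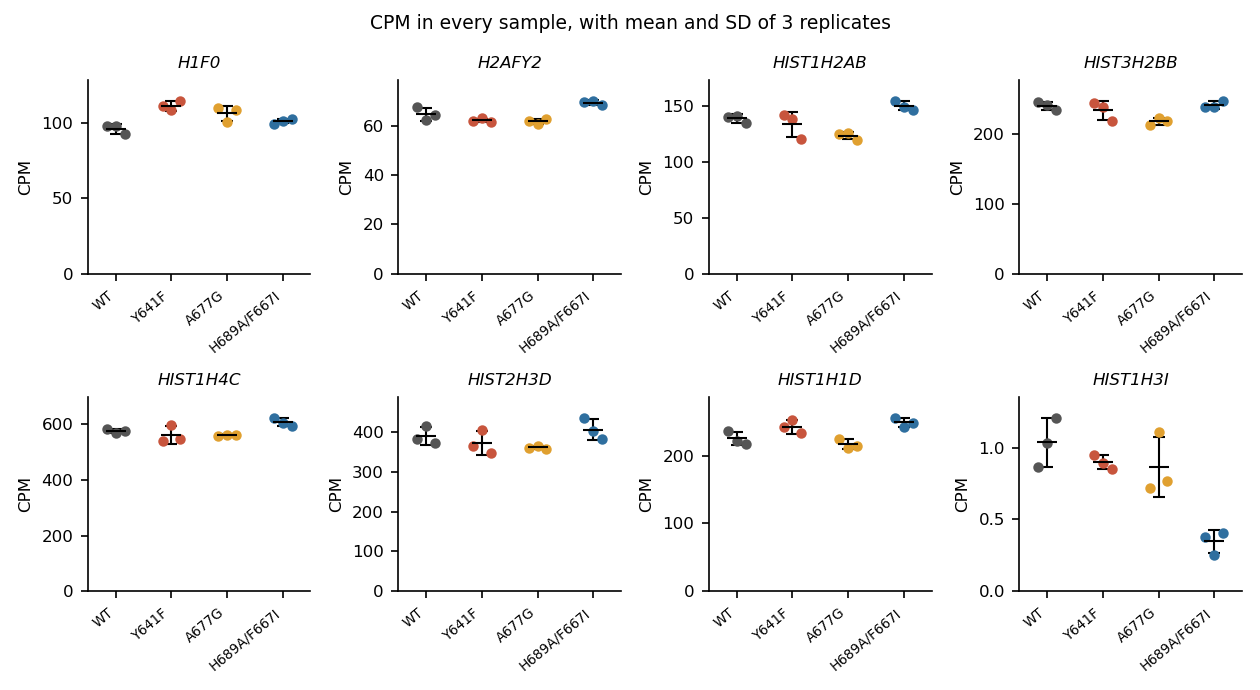
CPM in every sample of 8 histone genes, by line, with the mean and SD of 3 replicates; the axes start at 0. H1F0 was higher in both GOF lines than in WT, HIST1H2AB and HIST3H2BB were lower in A677G, and HIST1H3I was lowest in LOF, at under 0.5 CPM.

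Linker genes showed the same direction at high levels. HIST1H1C had 1195, 1233 and 1117 CPM in Y641F, 1181, 1181 and 1160 in A677G, and 1283, 1249 and 1227 in LOF (log2 difference -0.09, edgeR's quasi-likelihood test, adjusted p = 0.0474). HIST1H1E had 1136, 1165 and 1122, then 1197, 1169 and 1192, against 1236, 1220 and 1215 CPM in LOF. All GOF samples of HIST1H1E were below the LOF samples, yet its difference of -0.07 did not pass (the same edgeR test, adjusted p = 0.0844). Of the 13 H2B genes 1 was called, and their median was -0.06 against -0.11 in H4 and -0.10 in H2A, H3 and H1. HIST1H2BK and HIST1H2BF, both at -0.02, had 95% intervals of -0.08 to 0.05 and -0.10 to 0.07.

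The variants did not share a direction. H1F0 was higher in the GOF mean than in LOF by 0.11 (edgeR's quasi-likelihood test, adjusted p = 0.0480), with 99.6, 102 and 103 CPM in LOF, within which the lowest A677G replicate lay. This call was kept in 8 of 12 other settings and in 3 of the 9 fits that left out a replicate, with adjusted p-values up to 0.180. H2AFY2, which encodes the repressive variant macroH2A2, had 61.9, 62.9 and 61.3 CPM in Y641F, 62.0, 60.7 and 62.5 in A677G, and 69.5, 70.0 and 68.2 in LOF. The GOF and LOF values of H2AFY2 were well apart, with a log2 difference of -0.16 (standard error 0.0383, the same edgeR test, adjusted p = 0.00266). In WT it had 67.4, 62.2 and 64.1 CPM, and neither the GOF lines nor LOF passed against WT. H2AFZ (0.00, 95% interval -0.07 to 0.08), H3F3B (-0.05, -0.13 to 0.03), H2AFY (-0.03, -0.09 to 0.04) and H1FX (0.07, -0.01 to 0.14) did not pass. H2AFJ stayed between 4.99 and 7.42 CPM, H3F3AP4 between 68.4 and 78.3 and H1FX-AS1 between 2.59 and 3.66 over all samples, and none of them passed in the 5 comparisons. The libraries were stranded, but the strand setting of the counting is not given in the sources used here, so the split of reads between H1FX-AS1 and H1FX is uncertain. The median over the 11 variant symbols was 0.00, with 5 below 0. No test of the difference between both classes was made.

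**Figure D5:**
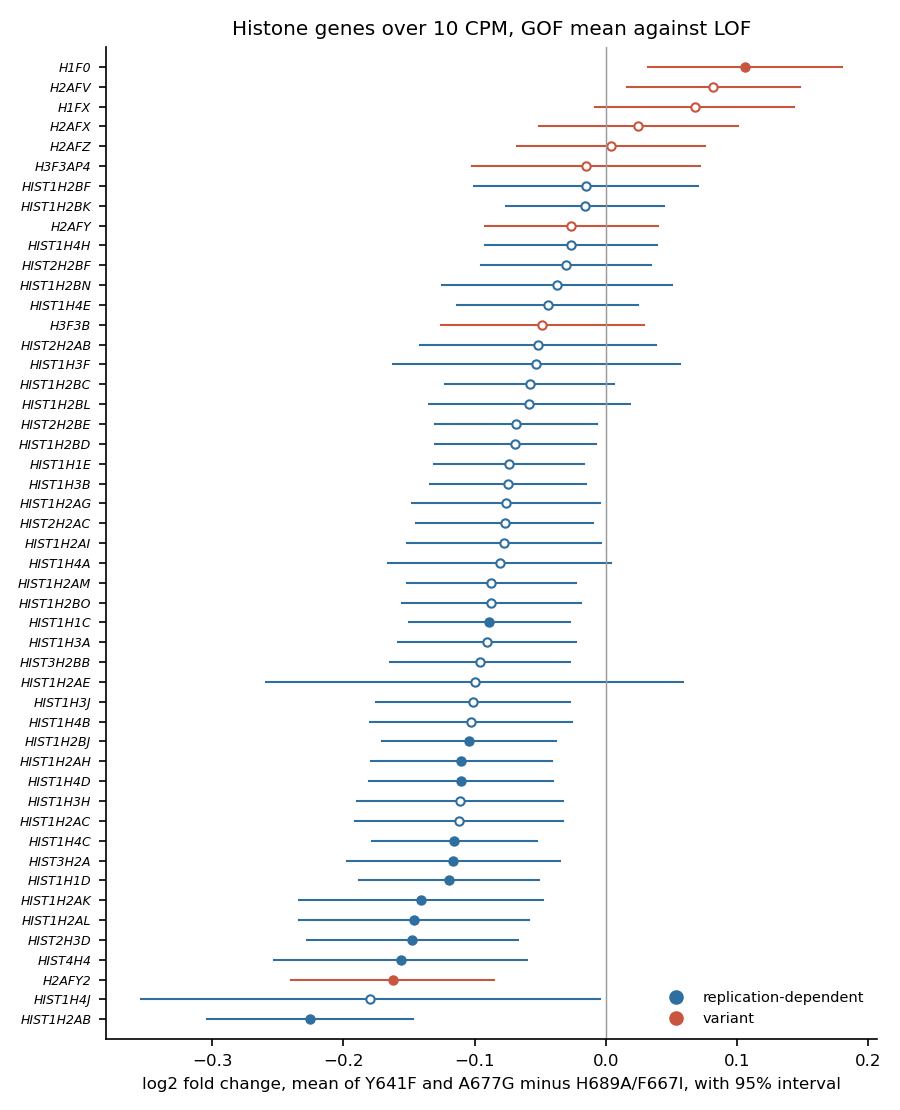
Log2 fold change of the GOF mean minus LOF with its 95% interval for the 49 members over 10 CPM, in order of size; filled points passed an adjusted p of 0.05 in edgeR's quasi-likelihood test. All 40 replication-dependent members lay below 0, from -0.23 for HIST1H2AB to -0.02, while H1F0 (0.11) and H2AFY2 (-0.16) were the variants that passed.

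The number of members called lower rested on single libraries. Without replicate 1 of LOF 2 members were called lower in place of 13, without its replicates 2 or 3 there were 7, and without replicate 3 of Y641F there were 6, whereas without replicate 2 of Y641F there were 26. The median of the replication-dependent members lay between -0.10 and -0.07 in all of these fits. The comparisons with WT share its replicates, so their values are given side by side and were not related to each other.

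Genes that make, process and remove histone mRNA were read from lists. Of 27 genes listed for 3′ processing and the histone locus body, 1 passed against WT, lower in A677G, where 6.48% of all genes were lower. It was MIR17HG (-0.21), a miRNA host gene that is not a processing factor. MIR17HG was also higher in Y641F than in A677G (0.31, edgeR's quasi-likelihood test, adjusted p = 0.00219), where 0.0701% of all genes were higher. In the GOF mean against LOF, 1 of the 27 was higher and 1 lower, against 3.81% and 8.75% of all genes. SNRPB, a Sm protein shared with splicing, was lower in the GOF mean than in LOF (-0.10). NPAT, the activator of histone transcription at the locus body, had 59.6 ± 1.44 CPM in WT, 64.8 ± 2.94 and 63.7 ± 3.08 in the GOF lines and 58.2 ± 1.03 in LOF. NPAT was higher in the GOF mean than in LOF by 0.14 (edgeR's quasi-likelihood test, adjusted p = 0.0171), the opposite side from the replication-dependent genes. SLBP, which binds the stem-loop, stood between 126 and 138 CPM in all 12 samples and passed in none of the 5 comparisons (log2 differences from -0.05 to 0.07).

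Of 10 genes of histone mRNA decay, the decapping enzyme DCP2 was higher in Y641F (0.14, adjusted p = 0.0202) and, with the exonuclease XRN1, in the GOF mean against LOF (0.11 and 0.13) by edgeR's quasi-likelihood test. Over all genes, 2.09% were higher in Y641F and 3.81% in the GOF mean against LOF. Of 28 histone chaperones and deposition factors, RBBP7, a histone-binding subunit of PRC2, was lower in Y641F (-0.10) and A677G (-0.12), and the others did not pass against WT. Over all genes, 5.59% and 6.48% were lower. Of 38 genes of DNA replication and S phase, the sliding clamp PCNA was higher in A677G (0.14, adjusted p = 0.0298) and LOF (0.18, the same edgeR test, adjusted p = 0.0443). Over all genes, 2.07% and 0.14% were higher. Between the GOF mean and LOF the median of the list was 0.00.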

How the data were processed

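Total RNA of 4 HEK293T lines in 3 biological replicates was sequenced after preparation with a stranded poly(A) mRNA kit. Per the submitters' notes, reads were trimmed with Trim Galore 0.6.5, aligned with STAR 2.7.9a and quantified with Salmon 1.2.0. The authors deposited counts per gene symbol as whole numbers without normalization. The step from transcript estimates to these counts, and the setting for strand, are not given in the sources used here.

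Members, gene lists and tests were chosen with earlier results of these data known. The analysis used edgeR 4.0.16 under R 4.3.3 on all 12 samples with 1 coefficient per line, by TMM factors and the quasi-likelihood test, which replaced the exact test of the study. P-values were adjusted by Benjamini-Hochberg over 14263 genes and passed under 0.05. Replicates measure only the spread between samples of 1 line, and few counts limit the precision of weak genes. Depth ranged from 32137700 to 44562413 counts, and the common biological coefficient of variation was 0.0471. Groups came from the sample labels.

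The genes named were all variants, the 3 highest replication-dependent members per family, members that passed in any comparison, up to 4 passing genes per list, and EZH2; others were named after their values were seen. Positions, stem-loops and lengths came from GENCODE 44 on GRCh38 and promoters from RefSeq, after all 61 symbols were matched through RefSeq synonyms and 52 to a promoter. The promoter of H1F0 and protein sequences were not used here. Alternatives were edgeR's exact test, DESeq2 1.42.0, other scalings and filters, fits of the compared groups, a replicate block, a robust fit, limma 3.58.1 voom and each replicate left out; removal of GC or length trends was added after seeing the data. The procedure was tested on simulated data.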

Additional observations from a re-analysis of the deposited data

Results flagged for a closer look

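The effects of the GOF mutants and of LOF differed, by the test of the GOF mean against LOF, for 15 histone genes, and this is a test of that difference itself (edgeR's quasi-likelihood test, Benjamini-Hochberg adjusted). The log2 differences were 0.11 for H1F0, -0.16 for H2AFY2, -0.089 for HIST1H1C, -0.12 for HIST1H1D, -0.23 for HIST1H2AB, -0.11 for HIST1H2AH, -0.14 for HIST1H2AK and -0.15 for HIST1H2AL. For HIST1H2BJ the difference was -0.10, for HIST1H3I 1.35, for HIST1H4C -0.12, for HIST1H4D -0.11, for HIST2H3D -0.15, for HIST3H2A -0.12 and for HIST4H4 -0.16. HIST1H2AB, H2AFY2 and HIST1H3I passed under every alternative and with each replicate left out. HIST3H2A and HIST1H1C each passed in 2 of the 9 fits that left out a replicate, and H1F0 and HIST1H4D each in 3 of them. With 3 replicates per line, no test for single outlying samples was made.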

How the results depend on the processing

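Counts are histone genes that passed. In Y641F against WT, 1 was higher and 0 lower. There were 2 higher with the GC trend removed, with the length trend removed, and with the GC trend removed and the replicate block together. There was 1 lower with DESeq2, upper-quartile factors, the robust fit, limma voom and the length trend removed. With replicates left out, 1 to 3 were higher and 0 to 2 lower. In A677G, with 1 higher and 2 lower, there were 2 higher with DESeq2, in the fit of the compared groups, with limma voom and with the GC trend removed, also with the replicate block. There were 4 lower with genes at 0 kept and with the length trend removed, and 7 in the fit of the compared groups and with limma voom. With replicates left out, 0 to 1 were higher and 0 to 2 lower.

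In LOF, with 0 higher and 1 lower, 1 was higher in the fit of the compared groups and with limma voom, 2 were lower with genes at 0 kept, and 0 were lower with any replicate left out (0 higher). Between the GOF lines, with 0 higher and 0 lower, 1 was higher with DESeq2 and with the GC or length trend removed, also with the replicate block, 3 with genes at 0 kept, and 0 to 1 with replicates left out (0 lower). For the GOF mean against LOF, with 2 higher and 13 lower, 1 was higher with upper-quartile factors, at least 10 counts per sample, the fit of the compared groups and the replicate block. There were 24 lower with upper-quartile factors and 23 with limma voom. With replicates left out, 1 to 3 were higher and 2 to 26 lower. The 3 higher, also called by limma voom, were H1F0, HIST1H3I and H2AFV. Causes were not tested.

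The summed CPM of replication-dependent members without the member with the most counts was 12776 in WT, 12537 in Y641F, 12460 in A677G and 13241 in LOF, and that of variants 1316, 1344, 1371 and 1354. In A677G, where the SD was small, library totals gave 13591 for the replication-dependent members, and upper-quartile factors 13528 for them and 1980 for variants. Over all genes tested, same-numbered replicates had correlations of their deviations between -0.0557 and 0.0501. This does not settle whether histone genes share an effect of replicate number. Their replication-dependent sum was lowest in replicate 3 of every line, at 13606 CPM in WT, 12950 in Y641F, 13615 in A677G and 14321 in LOF. Pairing of the histone values was not tested. The replicate block left the counts against WT at 1 higher in each GOF line. In the GOF mean against LOF it moved them from 2 to 1 higher, losing H1F0, and from 13 to 17 lower. edgeR's exact test was not run for the GOF mean, since it compares 2 groups. Fits on family sums give no count of members, and placed H4 at -0.09 and H2B at -0.06 in the GOF mean against LOF. The median of replication-dependent members turned from -0.02 to 0.02 in Y641F against WT without replicate 3 of Y641F. In Y641F against A677G it turned from 0.01 to -0.02 without replicate 2 of Y641F, and was 0.05 without replicate 3 of Y641F. Weak genes such as HIST1H3I rest on 10 to 45 counts.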
